A study of Bos taurus with 30 samples.

Results

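Albumin and haptoglobin are plasma proteins that the liver makes and secretes, and their transcripts were followed here in the livers of 30 heifer calves. They were taken as the table rows ENSBTAG00000017121 (ALB, albumin) and ENSBTAG00000006354 (HP, haptoglobin), which are 2 of 24596 rows. The deposited table gives identifiers alone, and the names belong to the identifiers by which both rows were chosen, since the RefSeq gene table used here matched 0 of the identifiers. All calves were Holstein-Friesian by Angus heifers, sampled at 21 weeks of age after differential feeding from 2 weeks, with 1 liver library per calf. The labels number no replicates, so calves are numbered here within each diet in accession order, and a number pairs no calves. The High group (15 calves, target gain 1.2 kg a day) was given 1.5 kg of milk replacer daily in 10 litres with unrestricted concentrate during a calf phase of 8 weeks. It then had unrestricted concentrate and hay for 11 weeks after weaning. The Moderate group (15 calves, target gain 0.5 kg a day) was given 0.5 kg of milk replacer in 4 litres and 1 kg of concentrate, and after weaning 1 kg of concentrate with hay. The labels give no other feeding group, so each value is read against the other diet.

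Albumin is the main protein of plasma, where it holds water in the vessels and carries fatty acids, bilirubin, metals and drugs. It is a negative acute phase protein, whose synthesis falls during inflammation and with poor protein supply. Haptoglobin binds free haemoglobin released from red cells, so that macrophages can take up the complex. In cattle it is a classical positive acute phase protein, nearly absent from the plasma of healthy animals and strongly induced in hepatocytes by cytokines such as interleukin-6.

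The libraries held 11528471 to 17906182 reads counted to genes, and all read totals and shares refer to these. Expression is given as scaled CPM, that is, reads per 1000000 of a library total adjusted by trimmed-mean scaling. The extraction text names hypothalamus while the tissue label of every sample says liver. Of the defining liver markers, ALB alone could be checked by identifier together with HP, and ALB was the most abundant row in 30 of 30 libraries. Reads were not divided by transcript length, so the share of reads of ALB and that of HP are not a ratio of molecules. In whole liver, fewer hepatocytes and less RNA per hepatocyte cannot be told apart.

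Albumin transcripts made up about the same large part of the liver library on either diet. In High calves ALB ranged from 52034 to 82603 scaled CPM with a median of 64335, and in Moderate calves from 52350 to 88174 with a median of 65139. The groups overlapped over nearly their whole range: 7 of 15 High calves lay above the Moderate median, 3 Moderate calves lay above the highest High calf, and 1 High calf lay below the lowest Moderate calf. As a share of all reads, ALB took 6.48% ± 0.828 in High and 6.85% ± 0.997 in Moderate livers (SD, n = 15 each). The lowest share was 5.12% in High replicate 2 (95% exact Clopper-Pearson interval 5.11 to 5.13%), and the highest was 8.94% in Moderate replicate 3 (8.92 to 8.95%). These intervals cover counting error only and are far narrower than the spread between calves.

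High calves averaged 66023 ± 9437 scaled CPM of ALB and Moderate calves 67675 ± 11595 (SD, n = 15 each). The log2 fold change, High minus Moderate, was -0.03 with a standard error of 0.10 (limma over 12913 tested genes, adjusted p = 0.904). Its 95% interval of -0.24 to 0.18 corresponds to 0.847 to 1.13 times the Moderate level. Across all tested genes 1551 were called at an adjusted p below 0.05, which is 12% of them, and ALB was not among these. The difference was smaller than the spread within either diet.

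ALB stood well above the next gene in most livers, though by a narrower margin in the High group. In High calves ALB was 1.89 ± 0.415 times the next most abundant gene (SD, n = 15), from 1.17 in replicate 2 to 2.55 in replicate 5. In Moderate calves it was 2.56 ± 0.454 times the next gene (SD, n = 15), with a range of 1.66 to 3.44. The ratio combines ALB with the level of another gene and was not tested. The next gene was taken in each library separately, leaving out HP, and need not be the same gene in every calf. Its level was 26115 to 47943 scaled CPM in High and 22694 to 36529 in Moderate calves.

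**Figure D1:**
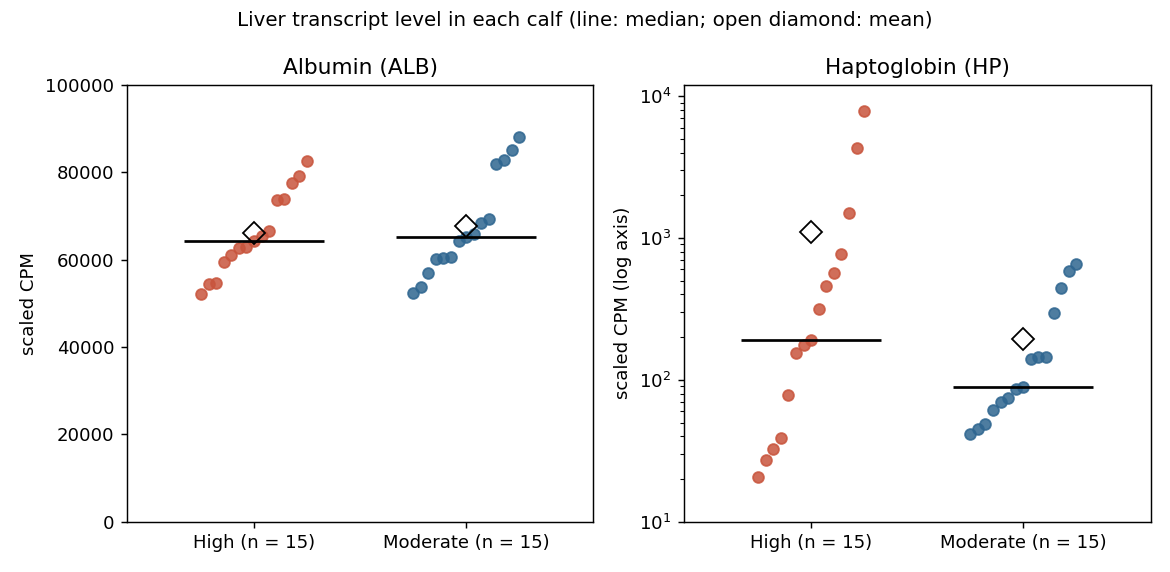
Level of ALB (left, linear axis from 0) and HP (right, log axis) in scaled CPM, 1 point per calf, sorted within each diet, with the median as a line and the mean as an open diamond. ALB spans 52034 to 88174 over all 30 calves, whereas HP spans 20.7 to 7880 and both ends of its range belong to High calves.

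Haptoglobin transcripts differed between calves by more than 2 orders of magnitude. In High calves HP ranged from 20.7 to 7880 scaled CPM around a median of 189.98, so the highest calf held 381 times the lowest. In Moderate calves it ranged from 41.7 to 657 around a median of 89.3, a 15.8-fold range. The High calves enclosed the Moderate ones on both sides: 4 of 15 High calves lay above the highest Moderate calf and 4 of 15 lay below the lowest Moderate calf.

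The upper end was held by a few animals. High replicate 1 had 7880 scaled CPM, High replicate 7 had 4345, High replicate 4 had 1502 and High replicate 2 had 767. The highest 2 of them contributed 73.8% of the summed HP of the High group. Above 500 scaled CPM there were 5 High and 2 Moderate calves, and above 1000 there were 3 High and 0 Moderate calves. The Moderate calves above 500 were replicates 10 and 13, at 657 and 583 scaled CPM.

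The lower end was also made of High calves. High replicate 3 had 20.7 scaled CPM, replicate 11 had 27.1, replicate 5 had 32.5 and replicate 10 had 38.7. The lowest Moderate calf, replicate 7, had 41.7. Even in High replicate 3 HP was counted from 314 reads, a share of 0.00221% (95% exact interval 0.00197 to 0.00247%), against 82519 reads in High replicate 1, a share of 0.716% (0.711 to 0.721%). Counting error is thus small beside the difference between calves.

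In abundance order HP moved from among the leading transcripts of the liver to far down the list. It was the 12th most abundant row in High replicate 1, the 26th in High replicate 7 and the 5192nd in High replicate 3. The median rank was 673 in High calves and 1369 in Moderate calves, and the Moderate ranks ran from 181 to 2952. The number of ALB reads for each HP read, which does not depend on how libraries are scaled, fell as low as 7.98 in High replicate 1 and reached 2645 in High replicate 3. Its median was 387 in High and 927 in Moderate livers, and in Moderate livers it ran from 100.4 to 1545. On the log2 scale HP over ALB averaged -8.03 ± 2.68 in High and -9.05 ± 1.39 in Moderate livers (SD, n = 15 each). The gap between these averages is smaller than the SD within either diet.

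Tests of the HP level between the diets gave different calls, and a single High library was decisive for each call that was made. High calves averaged 1104 ± 2176 scaled CPM of HP and Moderate calves 195 ± 204 (SD, n = 15 each), a 5.66-fold ratio of means against a 2.13-fold ratio of medians. On log2 values the fold change was 0.99 with a standard error of 0.70 (limma over all tested genes, adjusted p = 0.427), with a 95% interval of -0.44 to 2.42. This corresponds to 0.736 to 5.35 times the Moderate level, so neither equal levels nor a several-fold difference lies outside it. Of 15 High calves, 10 lay above the Moderate median.

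Count models, which compare arithmetic means of reads, called HP higher in High calves. On the recovered reads the log2 fold change was 2.50 by edgeR's quasi-likelihood test (adjusted p = 0.0210) and 2.51 by DESeq2 (SE 0.68, adjusted p = 0.00290). A two-sided permutation test of the same arithmetic means with 100000 resamples, which assumes no count distribution, gave an unadjusted p of 0.0709. The call by edgeR was lost without High replicate 1, when the log2 fold change was 1.67 (edgeR, adjusted p = 0.0992). It stayed below the threshold with each of the other 29 libraries left out, closest to it without High replicate 7 (log2 fold change 2.16, edgeR adjusted p = 0.0476). With DESeq2 the call was lost in 4 of 30 runs with a library left out. Without High replicate 1 the log2 fold change was 1.68 (DESeq2, adjusted p = 0.0549). Without High replicates 7, 4 or 2 in turn it was 0.74, 1.44 and 1.58 (DESeq2, adjusted p = 0.451, 0.119 and 0.0851), and in these 3 runs DESeq2 replaced the HP count of High replicate 1 as an outlier. With all 30 libraries it replaced 0 values. The limma estimate also moved most with High replicate 1, from 0.99 to 0.63 (limma, adjusted p = 0.617).

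**Figure D2:**
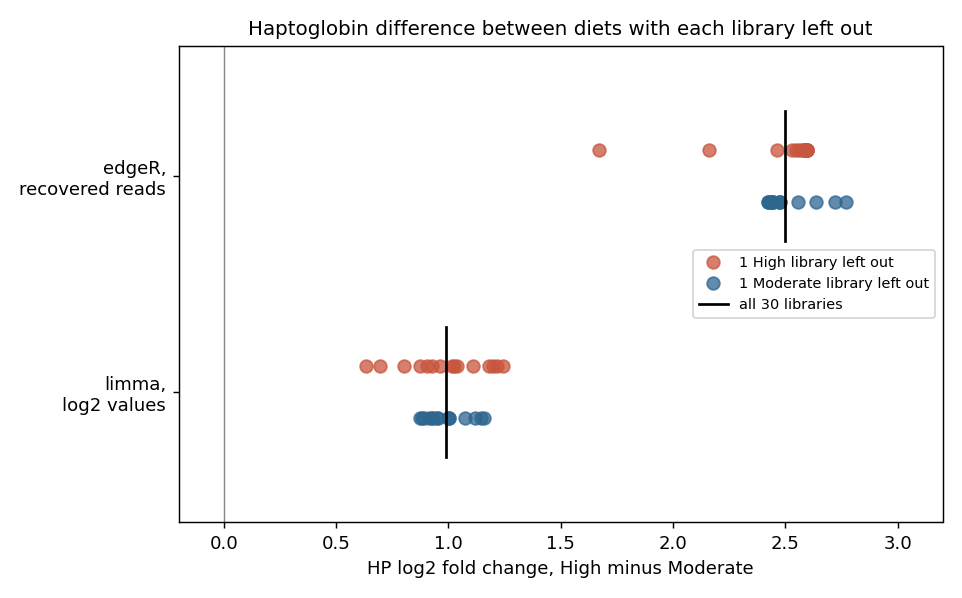
Log2 fold change of HP, High minus Moderate, by limma on log2 values (lower row) and by edgeR on recovered reads (upper row), with 1 point for each library left out and a vertical line for all 30 libraries. The limma estimates run from 0.63 to 1.24 and the edgeR estimates from 1.67 to 2.77, with the lowest edgeR point given by leaving out High replicate 1.

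The spread between calves was many times larger for HP than for ALB. Measured on log2 values with the diet means removed, the SD between calves was 0.22 for ALB and 2.07 for HP (n = 30), a ratio of 9.26. Exchanging the ALB and HP deviations at random within calves gave p = 1e-05 (two-sided permutation test, the smallest that 100000 resamples can give). HP was the more variable of the pair within each diet: its SD was 2.61 against 0.21 for ALB in High calves, and 1.33 against 0.24 in Moderate calves.

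Against all tested genes, ALB was an unremarkable gene and HP an extreme one in this respect. The median within-diet SD of the 12913 tested genes was 0.26, and 8291 genes had a larger SD than ALB. For HP 10 genes had a larger SD. Among the 280 tested genes with a mean within 2-fold of that of HP, 1 had a larger SD, and their median was 0.23. The edgeR coefficient of biological variation, which removes counting noise, was 1.20 for HP and 0.17 for ALB beside a median of 0.18 over the tested genes.

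**Figure D3:**
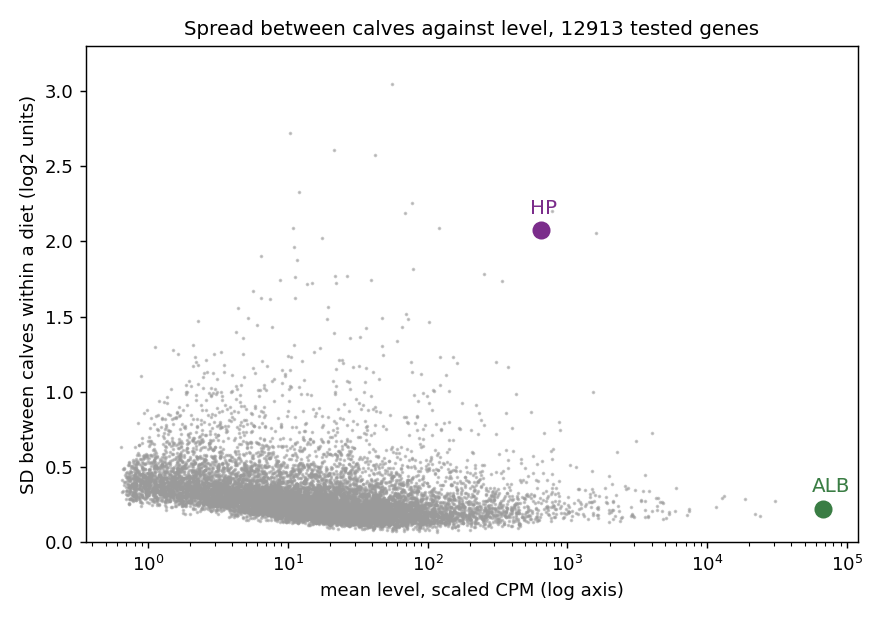
SD between calves within a diet (log2 units) against mean level (scaled CPM, log axis) for the 12913 tested genes in grey, with ALB and HP marked. ALB has the highest mean level and an SD of 0.22, and HP lies far above genes of similar level with an SD of 2.07.

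Haptoglobin also varied more in High than in Moderate calves, a difference that did not pass adjustment over all genes. The mean absolute deviation from the diet mean was 2.16 log2 units in High and 1.12 in Moderate calves, a difference of 1.04 (SE 0.35, 95% interval 0.35 to 1.72). Only 3 of the 12913 tested genes had a larger excess in High. The excess is an absolute difference in log2 units, so genes with a large SD can reach a higher place. Only 10 tested genes had a larger SD than HP, and the excess in proportion to SD was not ranked. In the same comparison fitted over all genes the unadjusted p was 0.00313 (limma on absolute deviations, adjusted p = 0.342), and 115th smallest among the tested genes. Of the tested genes 8 were called, which is 0.062%. With deviations taken from the group median, the HP difference was 1.04 with a larger SE of 0.50. Its unadjusted p was weaker, at 0.0379 (limma, adjusted p = 0.9998). Both SEs come from a fit that draws the variance of each gene toward a trend over all genes. The SEs, the interval and the p-values for HP therefore do not rest on the HP deviations alone. For ALB the mean absolute deviation was 0.17 in High and 0.20 in Moderate calves, a difference of -0.03 (SE 0.05, limma adjusted p = 0.952). In simulated data this test found 20% of genes whose variation was tripled and 5% of those in which it was doubled. Those genes were drawn at random, without HP, and each kept its own starting variation. The rates therefore do not give the power of the test for HP or ALB.

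No relation between the ALB and HP levels of the same calf passed the test, although each estimate was negative. Over the 15 High calves Pearson's r between the log2 values was -0.25 (permutation p = 0.370, adjusted p = 0.647) and Spearman's rho was -0.28 (permutation p = 0.313, adjusted p = 0.548). Over the 15 Moderate calves r was -0.14 (permutation p = 0.622, adjusted p = 0.724) and rho was -0.15 (permutation p = 0.603, adjusted p = 0.845). With diet means removed, r over all 30 calves was -0.19 (permutation p = 0.295, adjusted p = 0.647) and rho was -0.24 (permutation p = 0.188, adjusted p = 0.439). Without the 2 calves whose ALB lay farthest from the median, r was -0.14 in High, -0.26 in Moderate and -0.24 over both. The 2 calves with the most HP, High replicates 1 and 7, had 62863 and 54450 scaled CPM of ALB, both below the High median, and the 2 with the least, High replicates 3 and 11, had 54729 and 66603. ALB and HP come from the same libraries, and p-values were adjusted over 7 relations.

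Neither library depth, as reads counted to genes, nor the number of genes detected had a relation with HP or ALB that passed the test. High replicate 1, with the most HP, had the fewest reads of all libraries. With diet means removed, r of HP with total reads was -0.36 over 30 calves (permutation p = 0.0517, adjusted p = 0.318) with a rho of -0.25 (permutation p = 0.180, adjusted p = 0.439), and -0.28 without the 2 libraries farthest in depth. With the number of genes detected r was -0.30 (permutation p = 0.0909, adjusted p = 0.318), rho -0.26 (permutation p = 0.170, adjusted p = 0.439) and r -0.27 without the 2 farthest. For ALB r was -0.07 with either measure (permutation p = 0.719 and 0.724, adjusted p = 0.724 for both), with a rho of 0.02 and -0.03 (permutation p = 0.904 and 0.867, adjusted p = 0.904 for both) and an r of 0.02 and -0.24 without the 2 farthest. The part of depth in the spread of HP was not tested.

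**Figure D4:**
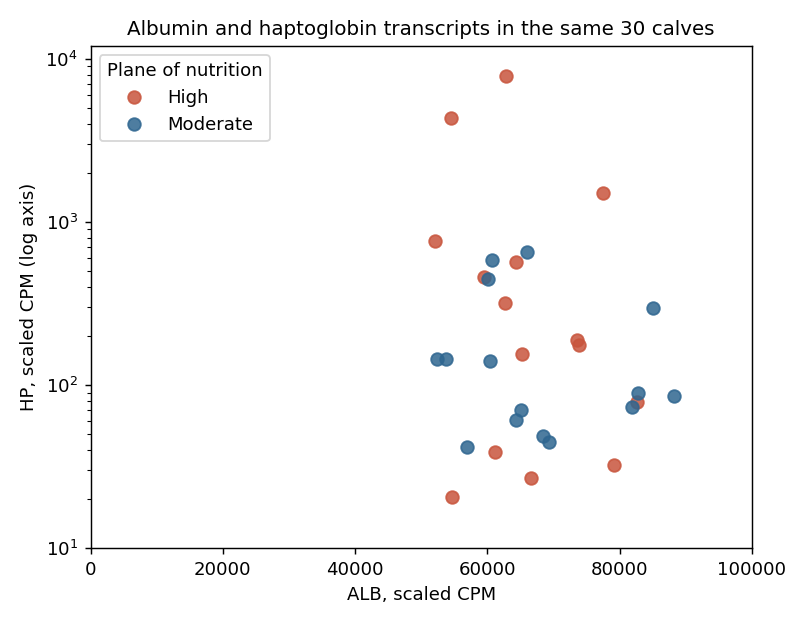
HP (scaled CPM, log axis) against ALB (scaled CPM) in the same 30 calves, coloured by diet. The calf with the least HP had 54729 scaled CPM of ALB and the calf with the most had 62863. Over all 30 calves ALB spans 52034 to 88174, and r was -0.25 in High and -0.14 in Moderate calves.

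The genes whose pattern was most like that of HP were sought among 7836 other genes with a mean of at least 10 scaled CPM, by Pearson's r of log2 values over 30 libraries with diet means removed. Above an r of 0.7 there were 18 genes, and below -0.7 there was 1. That total of 19 is no exceptional number, since the same count over these genes had a median of 12 and an upper quartile of 42. Of the 18 genes, 18 exceeded 0.7 within the High calves alone and 0 within the Moderate calves alone. The limit was only just missed by the gene most like HP, with an r of 0.698 within Moderate calves. They were picked on the same libraries, and HP varied more in High calves (SD 2.61 against 1.33). The agreement within High calves is therefore no separate support. Whether the narrower range of HP in Moderate calves accounts for the 0 was not tested. The 18 genes had SDs of 0.20 to 0.99 and a median of 0.33, all below that of HP.

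By identifier, since the files give no names, ENSBTAG00000022394 was most like HP (r = 0.79, 0.87 within High and 0.698 within Moderate calves). It ranged from 195 to 2616 scaled CPM in High calves (median 674) and from 68.9 to 466 in Moderate calves (median 212), with its highest value in High replicate 7. It was called higher in High livers, by 1.83 on the log2 scale (SE 0.30, adjusted p = 3.99e-05 by limma), whereas HP was not called by the same test. ENSBTAG00000012210 followed (r = 0.78, 0.90 within High and 0.49 within Moderate calves), at 1473 to 3012 scaled CPM in High calves and 1151 to 1951 in Moderate calves, highest in High replicate 1. ENSBTAG00000012210 was higher in High livers by 0.40 on the log2 scale (SE 0.10, adjusted p = 0.00458 by limma).

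The most opposite gene was ENSBTAG00000001893, with an r of -0.70, which was -0.84 within High and -0.06 within Moderate calves. It depended on few calves, with r at -0.56 without the 2 calves whose HP lay farthest from the median, at -0.65 to -0.73 with 1 calf left out, and a rho of -0.56. It rose in High livers, by 0.30 on the log2 scale (SE 0.07, adjusted p = 0.00504 by limma). Its High values ran from 171 in replicate 7 to 304 scaled CPM in replicate 10, and its Moderate values from 170 to 211. ENSBTAG00000008120 came next with an r of -0.62 (-0.77 in High and -0.44 in Moderate calves). Of the 18 genes that resembled HP, 8 were called higher and 1 lower in High livers, where 12% of all tested genes were called (816 higher and 735 lower of 12913). The 18 genes were picked on these libraries, so the count was not tested.

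Fewer genes followed ALB. Above an r of 0.7 there were 2, with r of 0.73 and 0.71 and means of 1990 and 4751 scaled CPM, and below -0.7 there were 0, the lowest r being -0.67. Of the 7836 genes, 5685 had more partners at this limit than ALB did. Neither of the genes that followed ALB was called between the diets (limma, adjusted p = 0.656 and 0.699).

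**Figure D5:**
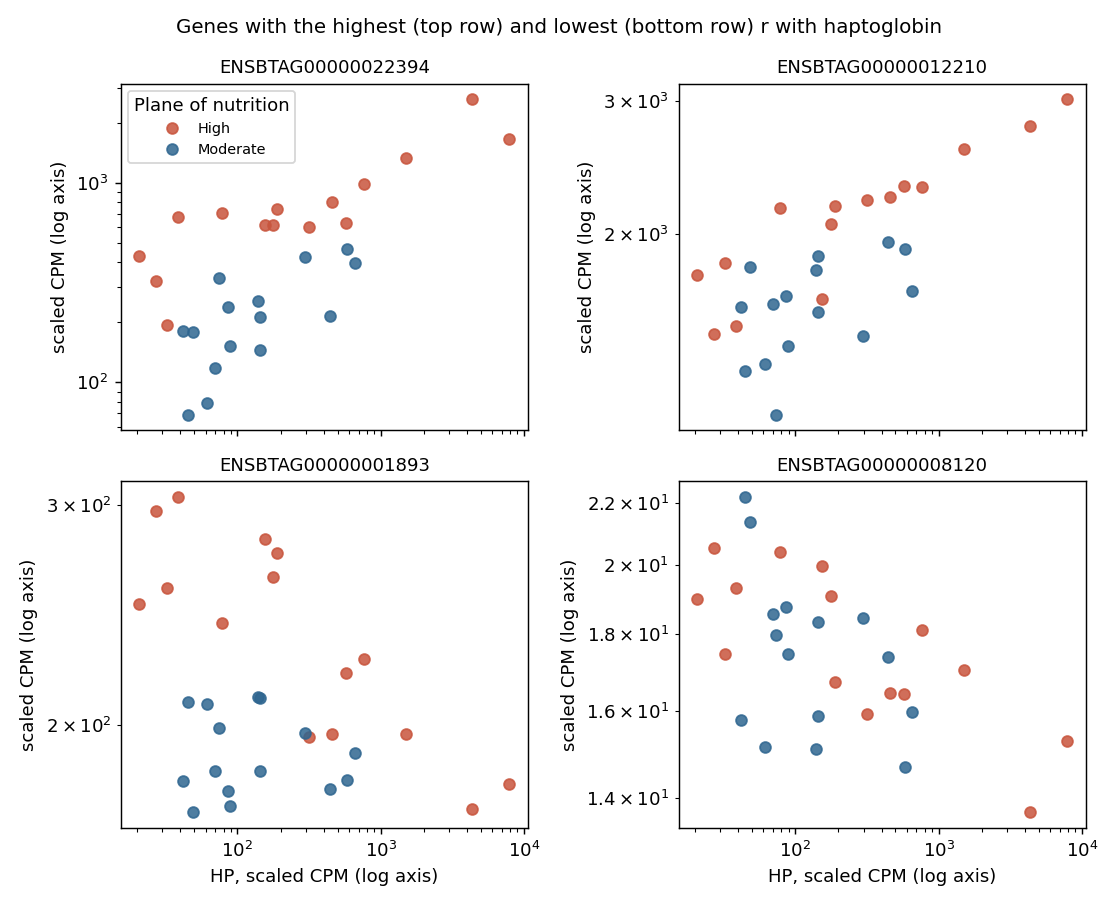
Scaled CPM (log axes) of the genes with the highest r with HP (top row) and the lowest r (bottom row) against HP, 1 point per calf, coloured by diet. ENSBTAG00000022394 and ENSBTAG00000012210 climb with HP across the High calves, and ENSBTAG00000001893 falls with HP in High calves while Moderate calves stay between 170 and 211.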

How the data were processed

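The build was UMD3.1 and the tools STAR 2.6.1, cutadapt 2.6, FastQC 0.11.8, edgeR 3.5 and R 3.4, per the submitters' processing notes. How reads were assigned to genes, and whether by strand, is not given in the sources used here, so reads of overlapping or antisense genes cannot be told apart from those of ALB and HP. The deposited values are a scaled signal, not raw counts: each column holds whole multiples of 1 step, worth 0.0554 to 0.0955 scaled CPM, for 100% of 471204 values above 0 (tolerance 0.001 reads). All columns belonged to the series. Reads recovered this way gave shares, ranks and count tests. Pseudocount 0.5 was added before log2. The 12913 genes kept by filterByExpr (a minimum of 10 reads at median depth in roughly 1 diet group's number of libraries) were tested with limma 3.58.1 (mean-variance trend, Benjamini-Hochberg, threshold 0.05) for level and for absolute deviations from the diet mean. With this trend the variance of ALB, at the end of the range of levels, is drawn toward that of other genes. Alternatives used edgeR 4.0.16, DESeq2 1.42.0, voom and sva 3.50.0. Permutation tests used numpy 2.4.6.

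The closest pair of libraries differed by a chi-square of 18.0 per degree of freedom, and no library was counted as a duplicate. Each animal tag occurs once. The labels name no batch, date or pen, and no batch could be examined. Scripts were tested on simulated counts for 12913 genes: for the level comparison limma found 22% of planted genes at 1.25-fold, 82% at 1.5-fold, 86% at 2-fold and 100% at 4-fold (50 genes each, 8 false calls). For the spread comparison 20% of genes with variation tripled and 5% with variation doubled were recovered (100 genes each, 1 false call). In both comparisons the planted genes were drawn at random, without HP, and each kept its own starting variation. The edgeR coefficient of biological variation was 1.20 for HP against a median of 0.18. The rates for level and for spread therefore do not give the power of either test for HP. The members and lists were chosen with earlier results of these data known. The gene lists and cell type markers could not be matched to identifiers and were not run. Named genes are ALB, HP and the 2 genes with the highest and the 2 with the lowest r with HP.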

Additional observations from a re-analysis of the deposited data

How the results depend on the processing

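ALB kept its direction and remained without a call at every setting tried (log2 fold change -0.08 to -0.02, and -0.06 to -0.0015 with 1 library left out). HP level stayed positive throughout, but by edgeR (2.50, adjusted p = 0.0210) and DESeq2 (2.51, adjusted p = 0.00290) on recovered reads it was called. With other pseudocounts, filters, scalings, voom and a surrogate variable it ran from 0.94 to 1.00 without a call. The permutation test of arithmetic means gave 2.50 without a call. With 1 library left out it ran from 0.63 to 1.24 by limma, never called, and from 1.67 to 2.77 by edgeR, called in 29 of 30 cases, all but that without High replicate 1. By DESeq2 it ran from 0.74 to 2.78, called in 26 of 30 cases, all but those without High replicates 1, 7, 4 or 2. The edgeR and DESeq2 runs with a library left out and the test of arithmetic means were added once the data had been seen. The HP to ALB ratio of SDs ran from 5.53 in Moderate calves alone to 12.7 in High calves alone and passed its test at each setting. The correlations of ALB with HP stayed negative without a call (-0.44 to -0.11 in High, -0.27 to -0.07 in Moderate calves). The HP spread difference stayed positive without a call (0.78 to 1.17). The count of genes called for spread fell from 8 to 3 with deviations from the group median, and ran from 3 to 12 with 1 library left out, so it rests on few genes. The count called for level ran from 1389 to 1860. Gene list alternatives were not run. No paired analysis was possible because the replicate numbers follow accession order and the labels give none. Counting error is small for both genes, whose smallest count was 314 reads.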
